A study of Mus musculus with 4 samples.

Results

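IN4 is one of 12 subtypes of inhibitory neurons named in the metadata deposited with a single-nucleus RNA-seq study of the mouse superior colliculus. Its members were the nuclei whose deposited subtype was IN4, 353 of 9724 nuclei in the series and 353 of 3459 inhibitory nuclei. The tissue came from C57BL/6J mice of 4 ages, E19 (embryonic day 19), P4, P8 and P21 (days after birth). A single library represented each age and pooled an unstated number of animals. All 4 groups were of the same strain, with no treatment or genetic change on the labels. IN4 contributed 71, 83, 105 and 94 nuclei in order of age. With 1 library per stage, a difference between stages was a difference between 2 libraries without a replicate check, so no p-value was computed.

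The superior colliculus is a layered midbrain structure that turns visual and other sensory input into orienting movements, and its inhibitory neurons release GABA onto local and distant targets. GABA is made by the glutamate decarboxylases encoded by Gad1 and Gad2 and loaded into vesicles by the transporter encoded by Slc32a1. Pax7 is a paired-box transcription factor that marks the dorsal midbrain during its patterning and persists in a share of its neurons, and the nuclear factor I genes (Nfia, Nfib, Nfix) encode DNA-binding proteins that act in late steps of neuron and glia formation.

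Somatostatin, the inhibitory peptide encoded by Sst, was among the genes that led in IN4, and its promoter is shown because it holds the cAMP response element, the palindrome TGACGTCA bound by CREB-family factors. The sequence runs 5′ to 3′ on the minus strand of GRCm38.p6, chr16:23890845-23891094, and ends at the base before the RefSeq start site. Capitals mark the element, at bases -48 to -41.
Sst: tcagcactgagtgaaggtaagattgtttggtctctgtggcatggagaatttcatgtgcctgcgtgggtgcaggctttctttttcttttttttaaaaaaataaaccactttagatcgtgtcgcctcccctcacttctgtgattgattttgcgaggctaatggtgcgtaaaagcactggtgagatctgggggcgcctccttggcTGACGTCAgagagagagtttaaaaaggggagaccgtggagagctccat

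The same 8 letters were sought in RefSeq windows from 250 bases before to 50 bases after each start site, and the palindrome reads the same on both strands. Of the 72 genes higher in IN4 than in the other inhibitory subtypes in all 4 libraries, described below, 50 matched a window and 4 held the element (8%). Of the 60 genes lower in IN4, 40 matched and 1 held it (2.5%, Kctd8), and over all genes with a window it was 549 of 27025 (2.03%). The 4 genes were Sst, Creb5, which encodes a CREB-family factor, Ltbp1, which encodes a binding protein of latent TGF-beta, and the long noncoding RNA Gm3764. No other element was sought, and Sst, whose promoter is shown for holding this one, is itself 1 of the 4. The share of 8% therefore includes a match known in advance, and these shares test nothing. The 28 bases around each element follow, 5′ to 3′ on the gene's strand of GRCm38.p6, to show that the 4 windows shared the element and not its flanks.
Creb5: gaatcccacgTGACGTCAccgggggggt
Gm3764: aacgagacagTGACGTCAgaccaggtat
Ltbp1: atttgctgccTGACGTCAcgtctgctgc
Sst: cctccttggcTGACGTCAgagagagagt
These sites lay at chr6:53287248-53287275 (plus strand), chr3:88214381-88214408 (plus), chr17:75005446-75005473 (plus) and chr16:23890875-23890902 (minus). A match is a run of letters in a window and was not shown to be a site in use.

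In order of age, IN4 nuclei held 347662, 451001, 792933 and 1134564 unique molecular identifiers (UMIs, each a counted RNA molecule). Their median UMIs per nucleus were 4708, 5214, 7436 and 11423, against 6230.5, 8065, 9556 and 14487.5 in the other inhibitory nuclei, and IN4 had the lowest or second-lowest median of the 12 subtypes at E19, P4 and P8. The median share of UMIs from mitochondrial genes in IN4 was 0.983%, 1.29%, 0.446% and 0.196% in the same order, against 0.704%, 0.79%, 0.334% and 0.187% in the other inhibitory nuclei. Counts were summed per library and subtype and are given as counts per 1000000 of that sum (CPM), with exact Poisson 95% intervals, and shares of nuclei have exact Clopper-Pearson 95% intervals. All these intervals cover counting error only and say nothing of the spread between animals. Among the 9724 nuclei, 18 carried a barcode found in another library, and 0 of them were IN4.

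The share of IN4 among inhibitory nuclei was 7.95% in the E19 library (interval 6.26 to 9.92%), 11.2% in P4 (9.06 to 13.8%), 9.65% in P8 (7.96 to 11.6%) and 12.7% in P21 (10.4 to 15.3%). The share was lowest at E19 and highest at P21, where the intervals did not overlap. The largest subtypes moved at the same time, since IN1 fell from 29.8% of inhibitory nuclei at E19 and 27.8% at P4 to 4.78% at P8 and 9.46% at P21. With IN1 and IN2 left out of the denominator, IN4 was 15.4%, 19.6%, 11.7% and 16.1%, and the order of the stages changed, with P8 lowest and P4 highest. Shares of recovered nuclei depend on dissection and capture as well as on cell numbers, which cannot be told apart here.

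**Figure D1:**
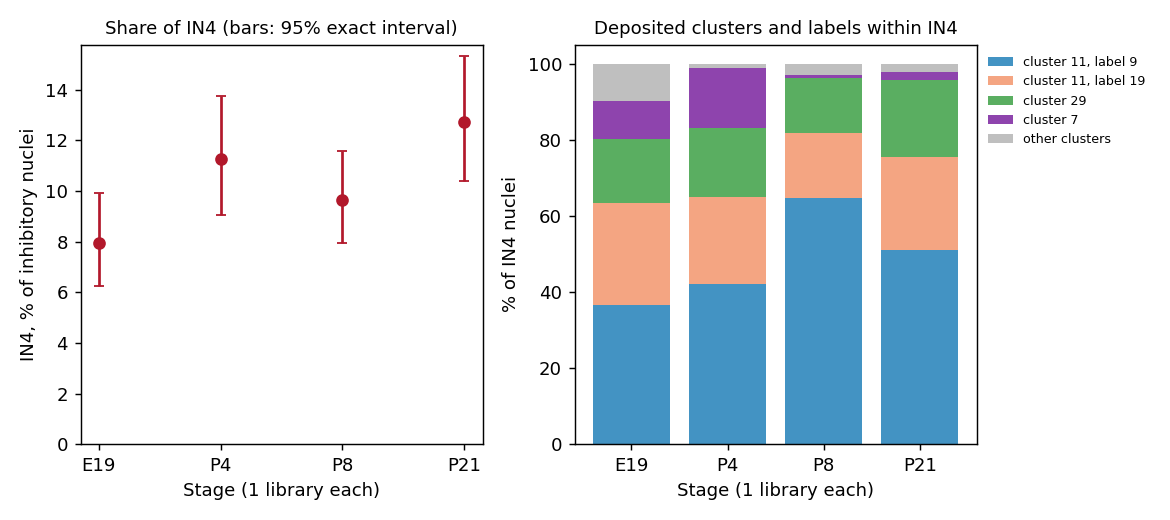
Left, IN4 as a percent of inhibitory nuclei at each stage (1 library each), with exact 95% intervals; right, percent of IN4 nuclei in each deposited cluster and reference label, stacked to the whole of IN4. The share runs from 7.95% at E19 to 12.7% at P21, and nuclei of cluster 11 with label 9 grow from 36.6% to 64.8% of IN4 between E19 and P8.

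The marker genes were present in IN4 at every stage. In order of age Gad1 stood at 368, 322, 300.2 and 217 CPM, Gad2 at 584, 344, 425 and 326 CPM, and Slc32a1 at 121, 88.7, 58.0 and 84.6 CPM. The other 11 inhibitory subtypes, each weighted alike, had 294, 267, 252 and 222 CPM of Gad1, and the log2 ratio of IN4 to them, after 5 CPM was added to both, was -0.03 to 0.32. Slc17a6, the vesicular glutamate transporter of excitatory collicular neurons, stood at 69.0, 84.3, 29 and 13.2 CPM in IN4. This was the highest level of the inhibitory subtypes at E19, P4 and P8, and was below only IN10 (17.7 CPM) at P21. In each library the interval of IN4 overlapped that of the nearest subtype. At P4, 19 of the 38 Slc17a6 UMIs in IN4 came from 13 nuclei of deposited cluster 7, described below. Without them the P4 level in IN4 was 47.3 CPM, under the 80.9 CPM of IN9 and the 50.5 CPM of IN3.

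Pax7 was higher in IN4 than in most of the other inhibitory subtypes, and its lead was smallest at P21. In IN4 it stood at 500.5 CPM at E19 (174 UMIs, interval 429 to 581 CPM), 432 at P4 (195 UMIs, 374 to 498), 312 at P8 (247 UMIs, 274 to 353) and 90.8 at P21 (103 UMIs, 74.1 to 110.1). The mean of the other 11 subtypes was 173, 128, 120.3 and 70.8 CPM. IN4 had the highest level of the 12 at E19 and P4, was the second at P8 and had rank 5 at P21.

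The neighbours of IN4 in the order of Pax7 levels were IN9, IN12 and IN11. IN9 had 468 CPM at E19 (interval 366 to 589 CPM), 364 at P4, 398 at P8 and 161 at P21. At E19 the intervals of IN4, IN9 and IN12 (409 CPM, 302 to 543 CPM) overlapped. The interval of IN4 also met that of IN9 at P4, those of IN9 and IN11 at P8, and those of IN6, IN8 and IN12 at P21, so the order of these neighbours was within counting error. IN11 had 293, 275, 274 and 154 CPM and IN8 had 109, 124, 137 and 57.3 CPM, so IN8 stayed below IN4 in each library. IN5 and IN10 were at or below 20.9 CPM in every library.

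Deeper libraries detect a gene in more nuclei, so detection was also counted after each nucleus was thinned to 2300 UMIs. A thinned Pax7 UMI was found in 62.0%, 48.2%, 42.9% and 13.8% of IN4 nuclei in order of age, against 74.6%, 67.5%, 77.1% and 60.6% before thinning. The other inhibitory nuclei gave 19.5%, 13.4%, 15.4% and 8.67% thinned, against 30.9%, 29.3%, 38.3% and 37.5% before. Excitatory nuclei, which should lack Pax7, gave 0.972%, 0.249%, 1.04% and 0.293% thinned, from median depths of 8051.5, 11738, 14158 and 19601 UMIs. The P21 share in IN4 lay above this background with intervals that did not meet, 7.57 to 22.5% in IN4 and at most 1.06% in excitatory nuclei.

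**Figure D2:**
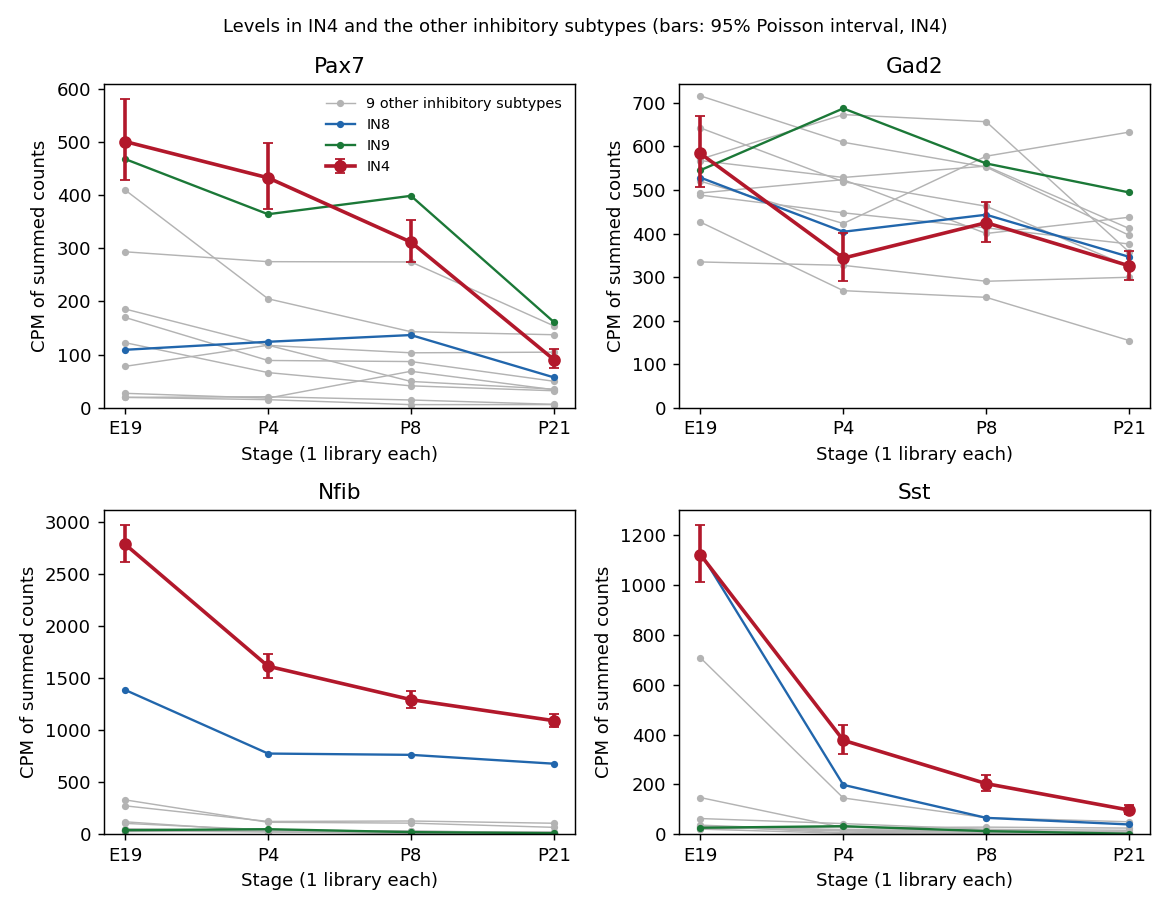
CPM of summed counts by stage (1 library each) for marker and leading genes, with IN4 in red (bars, 95% Poisson interval), IN8 in blue, IN9 in green and the other 9 inhibitory subtypes in grey. Pax7 in IN4 goes from 500.5 CPM at E19 to 90.8 CPM at P21, and Nfib in IN4 stays above each other inhibitory subtype in every library.

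A small set of nuclei inside IN4 went against the label. The deposited clusters placed 256 of the 353 IN4 nuclei in cluster 11, 61 in cluster 29, 23 in cluster 7 and 13 in 3 further clusters. Cluster 7 held 405 nuclei, of which 369 were named excitatory. Of its 23 IN4 nuclei, 10 had a UMI of Gad1, Gad2 or Slc32a1, against 328 of the 330 other IN4 nuclei, and 1 of 23 had a UMI of Pax7. By stage they numbered 7, 13, 1 and 2, which was 15.7% of IN4 at P4 (interval 8.61 to 25.3%) and 0.952% at P8.

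At P4 the 13 nuclei of cluster 7 carried genes that the other 70 IN4 nuclei almost lacked. Tph1, which encodes the tryptophan hydroxylase of pineal and peripheral serotonin synthesis, had 79 UMIs in 10 of the 13 nuclei (1595 CPM) and 1 UMI in the other 70 (2.49 CPM). Aanat, which encodes the enzyme that starts melatonin synthesis from serotonin, stood at 606 against 4.98 CPM, and Crx, a homeobox factor of photoreceptors and pinealocytes, at 18 UMIs against 0. Sag (868 CPM, arrestin), Col8a1 (3108 against 7.47 CPM, a collagen chain), Cngb3, Gnb3 and Tulp1 followed the same split. In these nuclei Gad2 was 60.6 against 379 CPM, Pax7 20.2 against 483 CPM and Slc17a6 384 against 47.3 CPM. At least 2 UMIs of Tph1, Crx, Aanat and Sag together were found in 12 of the 23 nuclei and in 0 of the other 330, and elsewhere in the series in at most 12 nuclei of a subtype (12 of 1202 in EN1, and 2 of 101 in committed oligodendrocytes). By stage they were found in 1 of 7 cluster 7 nuclei at E19, 10 of 13 at P4, 1 of 1 at P8 and 0 of 2 at P21. These 4 genes were taken from those that led in the 13 nuclei at P4, so the split describes them and tests nothing. The 23 nuclei were given no name here.

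Markers of other cell types were summed over fixed lists, and their part in the results was not tested. The excitatory list of 6 genes summed to 480, 259, 160 and 121 CPM in IN4, against medians of 146, 92.2, 65.9 and 25.5 CPM over the other inhibitory subtypes and up to 3617 CPM in IN10. It was 394, 209, 157 and 118 CPM without cluster 7. The astrocyte list of 8 genes summed to 460, 355, 257 and 157 CPM, above each other inhibitory subtype at E19 and P4, where the next had 305 and 267 CPM. Without cluster 7 this sum was 422, 272, 259 and 157 CPM, so at P4 it was close to the next subtype. Gfap was at 0 at E19. The oligodendrocyte list of 7 genes summed to 83.4, 86.5, 98.4 and 481 CPM, with medians of 70.3, 66.1, 67.3 and 376 CPM in the others. The dividing-cell list summed to 37.4 CPM at E19, and to 12.4 CPM without cluster 7.

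By the lowest of its 4 log2 ratios, the genes higher in IN4 were led by Nfib, St18, Nfix, Ror1 and Dcn. IN4 was compared with the mean CPM of the other 11 inhibitory subtypes in each library, as a log2 ratio after 5 CPM was added to both. A gene was counted as higher or lower when the log2 ratio was at least 1 or at most -1 in all 4 libraries, and by this rule 72 of 22999 genes were higher (0.313%) and 60 were lower (0.261%). Among the 9037 genes with 20 CPM or more in some library the shares were 0.797% and 0.642%. The subtypes were named from the same counts, so these genes describe IN4 and test nothing. IN4 was the highest of the 12 subtypes in every library for 40 of the 72, and the lowest in every library for 2 of the 60 (Gm45881 and Kcnq5, singled out after their values were seen). Without cluster 7, 70 of the 72 and 59 of the 60 were still counted.

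Nfib had the most even lead. In order of age it stood at 2781, 1612, 1291 and 1089 CPM in IN4, against 221, 116, 105 and 86.0 CPM in the other subtypes. The log2 ratios were 3.62, 3.74, 3.57 and 3.59, so the level in IN4 went down in step with the rest. Between 94.4% and 100% of IN4 nuclei had a UMI of it in each library. IN8 was the next subtype in all 4 libraries, with 1384, 774, 762 and 677 CPM. The gene lies on the minus strand of chromosome 4, chr4:82290173-82705750 (GRCm38).

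Nfix and Nfia, of the same family, were counted as higher as well. Nfix stood at 311, 231, 145 and 108 CPM against 23.8, 12.8, 6.94 and 7.75 CPM, with log2 ratios of 3.15 to 3.73. Nfia stood at 687, 308, 139 and 156 CPM against 53.9, 25.8, 21.3 and 42.6 CPM. Its lead narrowed from a log2 ratio of 3.56 at E19 to 1.76 at P21. The lowest ratio of Nfia was 0.36 with cluster 11 alone, the largest deposited cluster of IN4, and 0.89 without nuclei that held 2 or more UMIs of Slc17a6 or of glial markers, so it was not counted as higher under either.

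Satb1, a chromatin-organising homeodomain protein, stood at 362, 242, 190.4 and 206 CPM against 39.2, 28.0, 26.5 and 33.4 CPM. St18, a zinc-finger factor, stood at 311, 297, 306 and 189.5 CPM against 24.3, 13.3, 10.3 and 14.2 CPM, and reached the largest log2 ratio of these factors, 4.35, at P8. Prox1, a homeodomain factor, was low in level but highest of the 12 subtypes in each library, at 31.6, 66.5, 10.1 and 22 CPM against 4.0, 8.12, 1.96 and 2.09 CPM.

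Sst stood at 1122, 377, 203 and 97.0 CPM in order of age (intervals of 1013 to 1239 CPM at E19 and 79.7 to 117 CPM at P21), against 204, 48.2, 23.6 and 14.9 CPM in the other subtypes. Its level was lower at each later stage in IN4 and in the others alike, by -3.47 and -3.40 on the log2 scale from E19 to P21, while the log2 ratio stayed between 2.36 and 2.86. At E19 IN8 had 1129.8 CPM and was level with IN4, and from P4 on IN4 was the highest of the 12. A thinned Sst UMI was found in 54.9%, 39.8%, 34.3% and 17% of IN4 nuclei and in 14.2%, 5.72%, 3.81% and 0.733% of excitatory nuclei. Excitatory neurons are not known to lack Sst, so their share is no clean measure of free RNA.

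The remaining leaders were of mixed function. Ror1, a receptor of the Wnt5a pathway, stood at 322, 184, 145 and 293 CPM against 7.19, 18.3, 12.2 and 13.2 CPM. Kcnd3, a pore subunit of A-type potassium channels, stood at 1199, 1208, 1149 and 1038 CPM against 206, 253, 295 and 275 CPM. Dscaml1, a cell adhesion molecule of the immunoglobulin superfamily, stood at 883, 727, 799.6 and 422 CPM against 156, 157, 166 and 82.1 CPM. All 3 were highest of the 12 subtypes in every library.

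Sphkap, which encodes an anchor of protein kinase A, had log2 ratios of 1.97 to 2.71, and Trhde, the peptidase that degrades thyrotropin-releasing hormone, 1.70 to 2. Gm3764 had 1.59 to 1.94, Msra, a methionine sulfoxide reductase, 1.57 to 1.83, and Rai14, an actin-associated protein, 1.54 to 1.84. Dcn, which encodes the proteoglycan decorin, stood at 51.8, 84.3, 126 and 64.3 CPM against 3.8, 6.42, 5.95 and 1.2 CPM. Decorin is best known from fibroblasts. The list of 8 vascular markers, which includes Dcn, summed to 83.4, 133, 164 and 79.3 CPM in IN4, against at most 93.8, 79.9, 67.2 and 24.98 CPM in any other inhibitory subtype. Without Dcn the other 7 summed to 31.6, 48.8, 37.8 and 14.98 CPM, against medians of 32.0, 47.3, 27.7 and 11.1 CPM over the other subtypes, and Lum was at 0 in all 4 libraries and Pdgfrb in 3 of 4. Of the 15 leading genes, IN4 was the highest of the 12 subtypes in all 4 libraries for 13, and not for Sst and Trhde. The values of Creb5 and Ltbp1 were lower: Creb5 stood at 14.4, 22.2, 34.1 and 47.6 CPM in IN4 and Ltbp1 at 69.0, 55.4, 60.5 and 89.0 CPM.

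The genes that were low in IN4 were led by Zfhx3, a large zinc-finger homeodomain factor. It stood at 339, 102, 145 and 86.4 CPM in IN4 against 3097, 2365, 2322 and 1747 CPM in the other subtypes, with log2 ratios of -3.17 to -4.47, and IN4 ranked 10th or 11th of the 12. Nxph1, a secreted ligand of alpha-neurexins, stood at 138, 244, 102 and 123 CPM against 1806, 1758, 1647 and 1081 CPM. Pcdh15, a protocadherin, stood at 196, 199.6, 231 and 285 CPM against 1883, 2410.3, 2432 and 1988 CPM. Rbms3, an RNA-binding protein, was the lowest of the 12 subtypes at E19, P4 and P8, with 118, 155 and 144 CPM against 883, 975 and 927 CPM. Spon1, Vwc2l, Tmem132d and 2700069I18Rik completed the 8 lowest, with log2 ratios from -2.30 to -3.96.

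**Figure D3:**
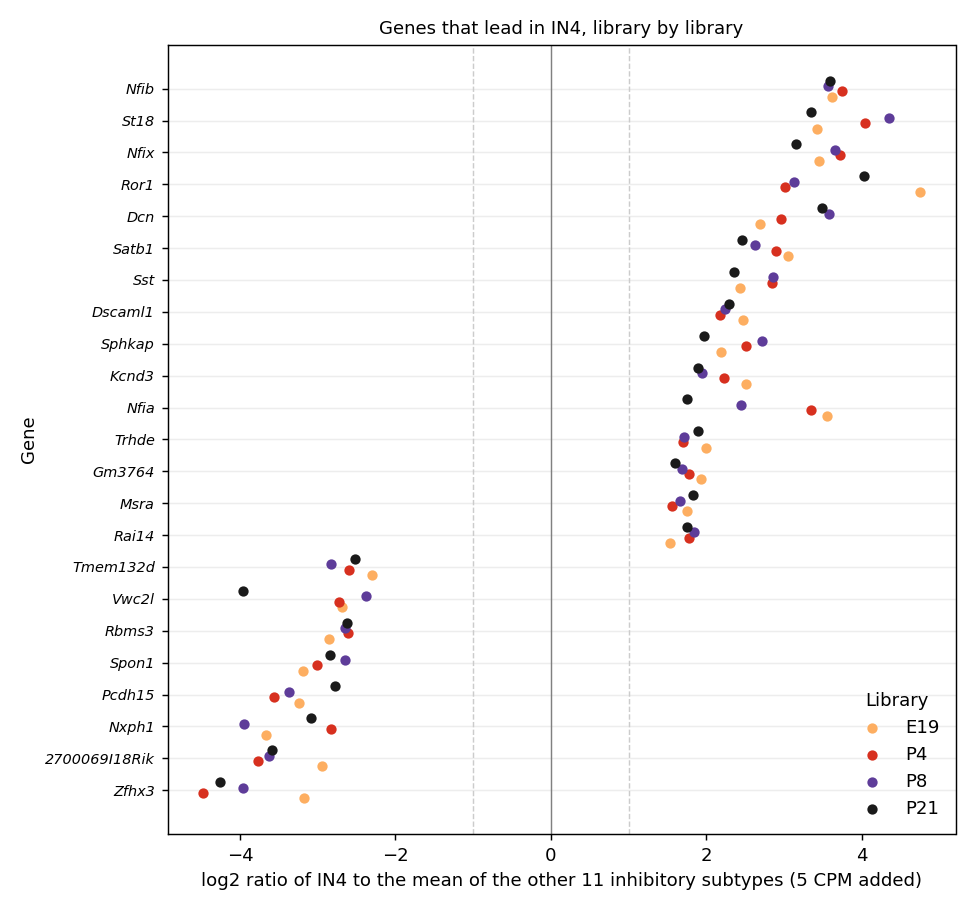
Log2 ratio of IN4 to the mean of the other 11 inhibitory subtypes (5 CPM added) for the 15 leading and the 8 lowest genes, 1 point per library. Nfib lies between 3.57 and 3.74 in all 4 libraries, Nfia spreads from 1.76 to 3.56, and Zfhx3 lies between -3.17 and -4.47.

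Regulators of midbrain identity were counted next, beside the 0.797% higher and 0.642% lower of all 9037 measured genes. The list of selector factors of midbrain GABAergic neurons had 9 of its 15 members measured, meaning 20 CPM or more in some library, and none was counted as higher or lower in all 4 libraries, with a median log2 ratio of 0.29 at E19 and 0.21 at P21. Gata3, a zinc-finger selector of GABAergic fate, was the lowest of the 12 subtypes in each library, at 63.3, 59.9, 45.4 and 46.7 CPM against 150.3, 145, 139 and 92.3 CPM. Of 16 measured patterning factors, 3 were higher (Meis2, Tfap2a and Lmo3) and 3 lower (Dmbx1, Meis1 and Pbx3), against medians of 0.78 at E19 and 0.33 at P21 for the list and 0.04 and 0.00 for all genes.

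Meis2, a TALE homeodomain factor, stood at 1113, 845, 807 and 509 CPM against 411, 259, 216 and 177 CPM, second of the 12 in each library. Its relative Meis1 went the other way, at 37.4, 24.4, 41.6 and 27.3 CPM against 114, 104, 121 and 91.2 CPM. Pbx3, another TALE homeodomain factor, was second lowest in each library, at 169.7, 84.3, 71.9 and 64.3 CPM against 757, 515, 498 and 337 CPM. Tfap2a stood at 54.7, 26.6, 22.7 and 14.1 CPM against 3.27, 2.83, 3.38 and 4.15 CPM. Among 46 other neuronal transcription factors, 6 were higher (Nfia, Nfib, Nfix, Satb1, Prox1 and St18) and 4 lower, Rorb, Foxp2 and Npas3 among them. The shares over all measured genes were again 0.797% higher and 0.642% lower.

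Lists of receptors, channels and adhesion genes were read against the 0.797% higher and 0.642% lower of all measured genes. Adra1a, the alpha-1A adrenergic receptor, was the only higher member of 20 measured receptors of neuromodulators and peptides, at 270.4, 159.6, 149 and 95.2 CPM against 62.9, 48.0, 53.1 and 34.8 CPM. Oprm1, the mu opioid receptor, was the only lower member, at 2.88, 11.1, 13.9 and 11.5 CPM against 35.0, 49.0, 67.5 and 59.6 CPM. Kcnd3 was higher and Kcnq5 lower of 46 potassium channel genes, and Cacna2d3, an auxiliary calcium channel subunit, was the one higher of 38 sodium, calcium and HCN channel genes.

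Of 23 measured cadherins and protocadherins, none was higher and 5 were lower (Cdh11, Cdh12, Cdh18, Cdh23 and Pcdh15). Cdh18 stood at 193, 273, 256 and 351 CPM in IN4 against 888, 1231, 1695 and 2320.3 CPM. Of 69 axon guidance genes 2 were higher (Unc5b and Dscaml1) and 5 lower (Epha6, Sema6d, Plxna4, Robo1 and Ntng1). Of 76 synapse organisers 1 was higher, Opcml, an immunoglobulin-domain adhesion protein, at 4404, 5645, 5781 and 5152 CPM, and 1 lower, Tenm1, a teneurin. Of 19 genes for GABA-A and glycine receptors and chloride transporters, Glra1 alone was lower and none was higher.

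Some genes began low in IN4 and came closer to the other subtypes with age. Grm7, a presynaptic metabotropic glutamate receptor, stood at 337, 800.4, 1516 and 1844 CPM against 1912, 2235, 2802 and 2683 CPM, so the log2 ratio went from -2.49 to -0.54. Lrfn5, a synaptic adhesion protein, went from 371 to 1351 CPM and from a log2 ratio of -1.87 to -0.32. Grin3a, an NMDA receptor subunit, went from 115 to 373 CPM while the others went from 509.8 to 335 CPM, and Lrrtm3, an adhesion protein of excitatory synapses, from 118 to 540.3 CPM against 501 to 634 CPM. Chrm3, the M3 muscarinic receptor, went the other way: it stood at 799.6, 1470.1, 1773 and 1959 CPM, was second of the 12 at E19 and first from P4 on, and its log2 ratio widened from 0.87 to 1.80. Trpc4, a cation channel, went from 31.6 CPM (15.5 CPM without cluster 7) to 103 CPM and from a log2 ratio of -0.58 to 1.68.

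The subtype most like IN4 by the correlation of log2 levels (Pearson's r) depended on the minimum level asked of a gene in any inhibitory subtype. At 20 CPM, the planned minimum, IN8 was the closest at E19 only. There IN1 and IN2 were closer at P4 (0.895 and 0.882 against 0.881), IN3 at P8 (0.915 against 0.913) and IN1 at P21 (0.933 against 0.932). At 100 CPM, an alternative, IN8 was the closest in each library, with 0.848, 0.84, 0.863 and 0.901 in order of age. The next were IN3 at E19 and P4 (0.817 and 0.832) and IN1 at P8 and P21 (0.85 and 0.884). IN12 had 0.731, 0.788, 0.784 and 0.762. The genes share libraries and depth, so these are descriptions. Of the 313 nuclei of cluster 11, 57 were IN8. The leading genes were partly shared: Nfib in IN4 was 0.68 to 1.05 log2 units above IN8, and Gad2 differed from IN8 by -0.23 to 0.14.

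Between IN4 and IN8, 74 of 19249 genes were higher in IN4 in all 4 libraries (0.384%) and 41 were lower (0.213%). IN8 had 66, 43, 61 and 40 nuclei, and the genes named here were ranked after the values were seen. Meis2 led, at 1113, 845, 807 and 509 CPM in IN4 against 99.4, 18.5, 31.6 and 33.2 CPM in IN8. Ror1 was next, at 322, 184, 145 and 293 CPM against 4.85, 13.2, 2.63 and 1.51 CPM. Zeb2, a zinc-finger homeobox factor, had 817, 774, 966 and 631 CPM against 145, 84.5, 71.0 and 87.4 CPM, and the noncoding Otx2os1 had 4884, 5614, 5357 and 2077 CPM against 866, 787, 674 and 399 CPM. Reln, the secreted protein reelin, and Adarb2, an RNA-editing family member, were also higher in IN4.

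The genes higher in IN8 were led by Cdh23, Epb41l4a, Pcdh15 and Robo1. Cdh23, a cadherin, had 189, 626, 645 and 91.9 CPM in IN8 against 5.75, 15.5, 12.6 and 0.881 CPM in IN4. Epb41l4a, a band 4.1 family protein, had 412, 314, 343 and 145 CPM in IN8 against 40.3, 24.4, 22.7 and 10.6 CPM. Pcdh15, which pairs with cadherin 23 in the tip links of hair cells, had 3014, 2570.5, 2264 and 1851 CPM in IN8 against 196, 199.6, 231 and 285 CPM. Robo1, a receptor of Slit ligands, had 3222, 2356, 2261 and 2151 CPM against 515, 401, 330.4 and 231 CPM. Htr1f, a serotonin receptor, had 53.3, 71.3, 139 and 175 CPM against 11.5, 8.87, 7.57 and 14.1 CPM.

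IN4 itself was made of at least 3 parts. The metadata also hold 2 sets of reference labels for the nuclei. In the numbered set, which left 2 IN4 nuclei without a label, 253 had label 9 (71.7%, against 1.19% of other inhibitory nuclei) and 79 had label 19 (22.4%, against 3.80%). Cluster 11 with label 9 held 177 IN4 nuclei (50.1%), cluster 11 with label 19 held 79 (22.4%) and cluster 29 held 61 (17.3%). In the other set 222 IN4 nuclei were ISC5 (62.9%, against 56.2% of other inhibitory nuclei), 75 ESC2 (21.2% against 24.6%) and 54 ESC1 (15.3% against 18.8%). The sources used here do not say what the labels of either set stand for. In order of age the first part made up 36.6%, 42.2%, 64.8% and 51.1% of IN4, with intervals of 25.5 to 48.9% at E19 and 54.8 to 73.8% at P8. The second was 26.8%, 22.9%, 17.1% and 24.5%, and the third 16.9%, 18.1%, 14.3% and 20.2%, with overlapping intervals throughout. A stage difference in the summed levels of IN4 therefore also carries this mix.

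The parts were compared with each other in every library in the same way. Cluster 11 with label 9 had 33 of 17659 genes higher than the mean of the other parts (0.187%) and 55 lower (0.311%). Cluster 11 with label 19 had 37 higher (0.21%) and 102 lower (0.578%), and cluster 29 had 66 higher (0.374%) and 92 lower (0.521%). The clusters and labels were made from expression, so these genes only describe them. The 3 parts held 26, 19 and 12 nuclei at E19 and 48, 23 and 19 at P21.

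Cluster 11 with label 9 was marked by Slit2, the ligand of Robo receptors in axon guidance, at 633, 536, 555 and 327 CPM, against 20.5, 65.9, 6.54 and 6.6 CPM with label 19 and 119, 280.2, 172 and 135 CPM in cluster 29. Sst was concentrated here as well, at 2313, 631, 275 and 175 CPM, against 399, 94.1, 13.1 and 6.6 CPM with label 19 and 687, 370.2, 217 and 73.8 CPM in cluster 29. Dcn stood at 114, 168, 203 and 141 CPM and was at or below 47.0 CPM in the others. Epyc, a small proteoglycan of the same family as Dcn, had UMIs in 49 of 177 nuclei and in 0 nuclei of either other part. Fstl4, a follistatin-like protein, went from 193 CPM at E19 to 745 at P21, and Sphkap was at 1082, 1198, 1298 and 1044 CPM, so the lead of Sphkap and Dcn in IN4 came largely from this part.

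Cluster 11 with label 19 was marked by Adarb2, at 2057, 5034, 5179.8 and 3838 CPM, against 528, 946, 1347 and 718 CPM with label 9 and 409, 160.1, 344 and 276 CPM in cluster 29. Grm8, a presynaptic metabotropic glutamate receptor, was nearly level over the stages at 3204, 2869.8, 3035 and 2743 CPM, against 484, 462, 384 and 447 CPM with label 9. Cluster 29 was nearer, with 1043, 720 and 1240 CPM and then 1292.5 CPM at P21. Pde3a, a cyclic nucleotide phosphodiesterase, stood at 1320.3, 969, 628 and 630.4 CPM. Nos1, the neuronal nitric oxide synthase, stood at 61.4, 104, 111 and 158 CPM and was at or below 36.8 CPM in the others. Pax7 was highest in this part at every stage, at 798, 649, 504 and 116 CPM.

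Cluster 29 was marked by Reln, at 1598, 951, 837 and 590.1 CPM, against 273, 57.8, 89.7 and 60.3 CPM with label 9. Nfia and Satb1 were higher here than with label 9: Nfia stood at 1558, 760.5, 381 and 398 CPM against 343, 110.3, 87.5 and 74.9 CPM with label 9, and Satb1 at 1202, 610.4, 695 and 513 CPM against 219.8, 173, 107 and 97.8 CPM. The IN4 nuclei of cluster 7 also carried Nfia, at 747 CPM at P4. In cluster 29 Grik3, a kainate receptor subunit, went from 555 to 167 CPM, and Car10, a carbonic anhydrase-related protein, from 1109 to 1761 CPM. Meis2 was low here, at 211, 410.2, 149 and 151 CPM, against 1407, 1140.2, 952 and 699 CPM with label 9. Nfib was high in all 3 parts: it went from 2365 to 861 CPM with label 9, from 4053 to 1221 CPM with label 19 and from 2852 to 1279.7 CPM in cluster 29.

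**Figure D4:**
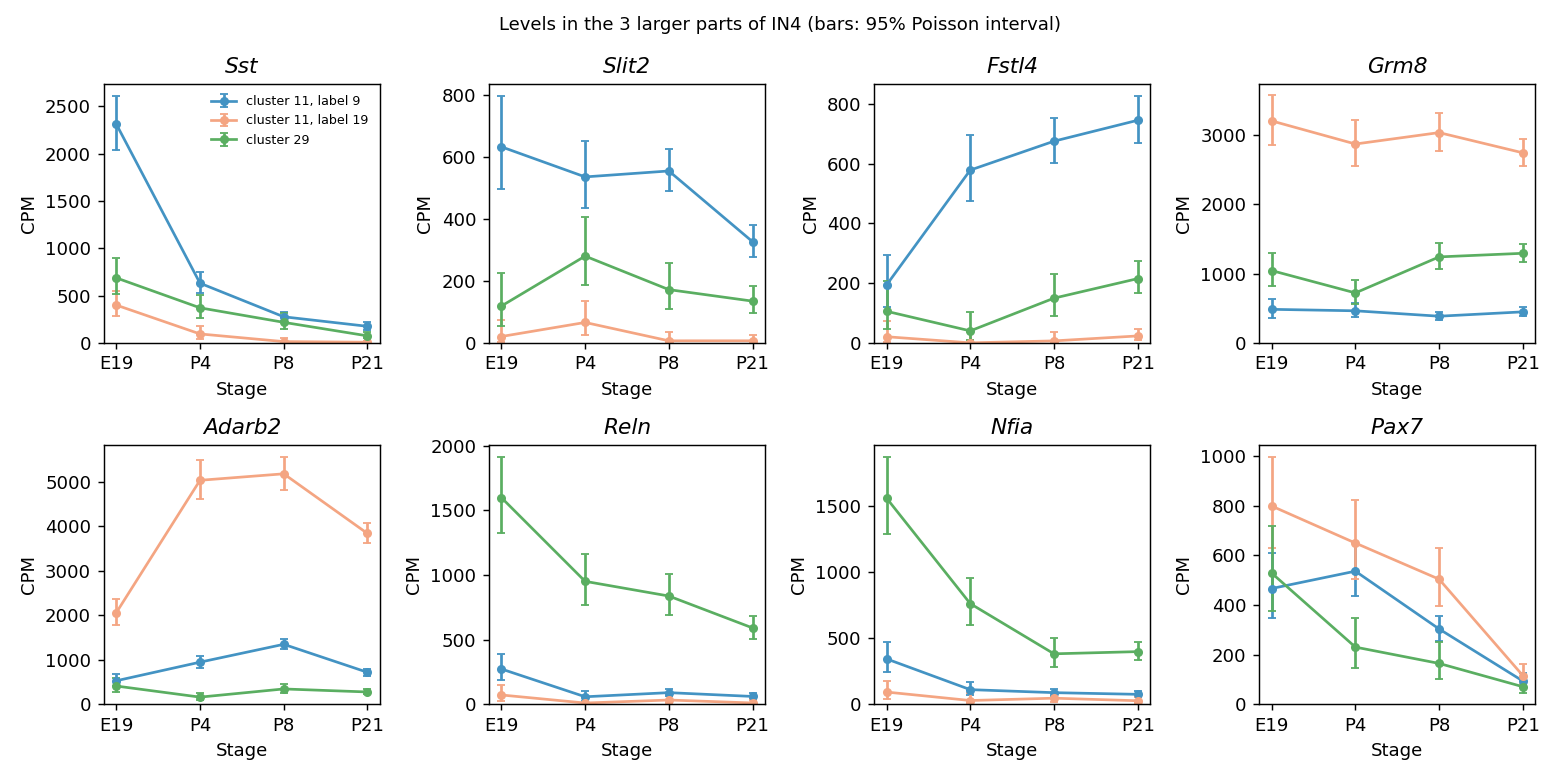
CPM by stage (1 library each) of 8 genes in the 3 larger parts of IN4, with 95% Poisson intervals: cluster 11 with label 9 in blue, cluster 11 with label 19 in orange and cluster 29 in green. Sst and Slit2 are highest in the blue part, Grm8 and Adarb2 in the orange part and Reln and Nfia in the green part in every library, and Pax7 is present in all 3 parts and lowest at P21.

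The stages of IN4 were compared for the genes that reached 100 CPM in either of the 2 libraries. From E19 to P4, 81 of 2355 genes were at least 2-fold higher (3.44%) and 56 were lower (2.38%), again with 5 CPM added. From P4 to P8, 21 of 2194 were higher (0.957%) and 87 lower (3.97%), and from P8 to P21, 91 of 2225 were higher (4.09%) and 82 lower (3.69%). Over the whole span, 317 of 2542 genes were higher at P21 (12.5%) and 413 were lower (16.2%). Scaling by the median of ratios moved the P4 to P8 counts to 43 higher and 60 lower, by moving the median of all genes by 0.13 on the log2 scale, and leaving out cluster 7 gave 15 and 50. The 90th percentile of the absolute log2 change from E19 to P21 was 1.89 in IN4, rank 4 of the 12 subtypes, and 1.42 to 2.01 in the others.

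The largest differences between E19 and P4 split into genes of cluster 7 and the rest. Tph1 (5.75 to 177 CPM), Col8a1 (2.88 to 348 CPM) and Mitf (5.75 to 109 CPM) were among the 5 largest increases over all IN4 nuclei, and these genes were carried by the 13 nuclei described above. Without them the leaders were Ttr, Gm28928, Stk33, Adcy2 and Arhgap6. Stk33, a serine/threonine kinase, went from 34.5 to 275 CPM in IN4 and changed little in the other subtypes (31.6 to 34.0 CPM). Arhgap6, a GTPase activator, went from 17.3 to 131 CPM, and Adcy2, an adenylate cyclase, from 54.7 to 355 CPM and on to 170.3 and 249 CPM. Without cluster 7 Adcy2 went from 24.8 to 204 CPM.

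Ttr, the thyroid hormone carrier transthyretin of the choroid plexus, stood at 0, 162, 2.52 and 0.881 CPM in IN4, and was at least 18.8-fold higher at P4 than the limit that 3 counts set at E19 (8.63 CPM). The other inhibitory subtypes had 108 CPM at P4, and before thinning 54.1% of excitatory nuclei and 50.6% of IN4 nuclei had a UMI of it there. A thinned Ttr UMI was found in 37.3% of IN4 nuclei (interval 27.0 to 48.7%) and 40.7% of oligodendrocyte-lineage nuclei. The thinned shares were 21.7% in the other inhibitory nuclei and 16.8% in excitatory nuclei (14.8 to 19.1%). Ttr was found across cell types in the P4 library and was not read as expression in IN4. Its thinned share was still higher in IN4 than in the other neurons, and the source of this RNA was not tested.

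Genes that were lower at P4 than at E19 included Igfbpl1, an insulin-like growth factor binding protein of immature neurons (377 to 75.4 CPM), Ccnjl, a cyclin-like gene (213 to 53.2 CPM), and Ebf3, an early B-cell factor (169.7 to 42.1 CPM). Ndst4, a heparan sulfate sulfotransferase, went from 101 to 15.5 CPM, and Tle4, a Groucho-family corepressor, from 227 to 64.3 CPM. The E19 levels of Ebf3 and Ndst4 came mostly from 7 nuclei outside the 3 larger parts and cluster 7, which held 40 of the 59 Ebf3 UMIs and 32 of the 35 Ndst4 UMIs. Of these 7 nuclei 6 were in cluster 22, where 162 of 174 nuclei were IN10, and IN10 had the highest Ebf3 level of the other subtypes at E19 (1663 CPM).

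From P4 to P8 the genes that went up were few. Pde1a, a calmodulin-dependent phosphodiesterase, went from 42.1 to 175 CPM and stayed at 184 CPM at P21, and almost all of it was in cluster 11 with label 9, which stood at 275 and 366 CPM at P8 and P21. Kctd16, an auxiliary subunit of GABA-B receptors, went from 339 to 839.9 and then 1166 CPM. Hdac8, a histone deacetylase, and Eda, ectodysplasin, peaked at P8 at 343 and 300.2 CPM and were at 197 and 69.6 CPM at P21. IN4 was the highest of the 12 subtypes for both at P8. Of the 3 larger parts, Hdac8 peaked at P8 only with label 9, at 114, 200, 502 and 272 CPM in order of age. It was highest at P21 with label 19 (125 CPM) and in cluster 29 (151 CPM). Eda peaked at P8 with label 9 (344 CPM) and label 19 (314 CPM), and in cluster 29 it was highest at E19 (172 CPM). The part with label 9 was largest at P8, at 64.8% of IN4. Tubb5 (569.8 to 169 CPM) and Tubb2b (721 to 242 CPM), tubulins of growing neurites, and Tcf7l2, a Wnt pathway factor (213 to 74.4 CPM), were lower at P8.

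From P8 to P21, BC030499 went from 0 UMIs at E19, P4 and P8 to 142 UMIs at P21 (125 CPM), at least 33.1-fold above the limit of 3 counts at P8. It did so in the other subtypes too, which went from 2.02 to 78.9 CPM. Nr3c2, the mineralocorticoid receptor, went from 29 to 268 CPM against 129 to 388 CPM in the others, and Rasgrf1, a Ras exchange factor that responds to calcium, from 59.3 to 450.4 CPM. Gm13629 went from 10.1 to 143 CPM.

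From E19 to P21 the largest increase in IN4 was that of the long noncoding RNA Gm28928. It stood at 14.4 CPM (5 UMIs), 271, 381 and 1838 CPM in order of age, a ratio of P21 to E19 of 128 with a counting interval of 54.7 to 394. Without cluster 7 the E19 level was 9.31 CPM. At P21 IN4 was the highest of the 12 subtypes, and within IN4 the level was 359.9 CPM in cluster 11 with label 9, 1759 with label 19 and 4400.3 in cluster 29. Htr2c, the serotonin 2C receptor, went from 11.5 to 469.8 CPM, and at P21 it was again uneven, at 85.3, 1046 and 532 CPM in the 3 parts. Ptprn, a protein of dense-core vesicles, went from 5.75 CPM at E19 through 53.2 and 117 to 226 CPM.

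The largest decreases were those of Tubb2b, Igfbpl1, Fabp7, Tubb5 and Nnat. Tubb2b went from 1145 to 7.93 CPM, Fabp7, a fatty acid binding protein of radial glia and astrocytes, from 403 to 3.53 CPM, Nnat, neuronatin, from 1171 to 24.7 CPM and Tubb5 from 731 to 11.5 CPM. The sum of the astrocyte list at E19, given above, was also higher in IN4 than in any other inhibitory subtype, and its part in the Fabp7 level was not tested. The other subtypes changed alike, by -6.65 for Tubb2b against -6.47 in IN4 and by -5.43 for Nnat against -5.31 on the log2 scale. Igfbpl1 fell more in IN4, by -6.02 against -3.41, from a level of 377 CPM that was the highest of the 12 at E19.

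The change from E19 to P21 was at least 1 log2 unit above that of the other subtypes for 95 of 2542 genes (3.74%) and at least 1 unit below for 59 (2.32%). Both changes come from the same 4 libraries. Cntnap5c, a neurexin-related adhesion protein, changed by 2.62 in IN4 (23.0 to 167 CPM) and by 0.04 in the others (58.6 to 60.3 CPM), with 504 CPM in cluster 29 at P21. Ptprn changed by 4.42 against 1.82. Gm20754 changed by 0.62 against -2.13, as the others went from 734 to 164 CPM while IN4 went from 328 to 507 CPM. Within IN4 its level went from 545 to 998 CPM with label 9 and from 235 to 264 CPM with label 19. In cluster 29 it went from 132 to 44.9 CPM, a change of -1.46. The part with label 9 was 36.6% of IN4 at E19 and 51.1% at P21, and the effect of this mix was not tested.

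In the other direction, Fam19a1, a secreted chemokine-like protein, stood at 1343, 474, 271 and 121 CPM in IN4 and at 735, 659, 794 and 502 CPM in the others, so that IN4 went from second to 11th of the 12. At E19 it stood at 3316 CPM with label 19, 1572 CPM in cluster 29 and 167 CPM with label 9. Gm30624 went from 181 to 7.93 CPM and was near 0 in the others at all stages. Syt2, a fast calcium sensor of vesicle release, was ahead of the other subtypes at E19 (63.3 against 8.78 CPM) and level with them at P21 (123 against 112 CPM).

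**Figure D5:**
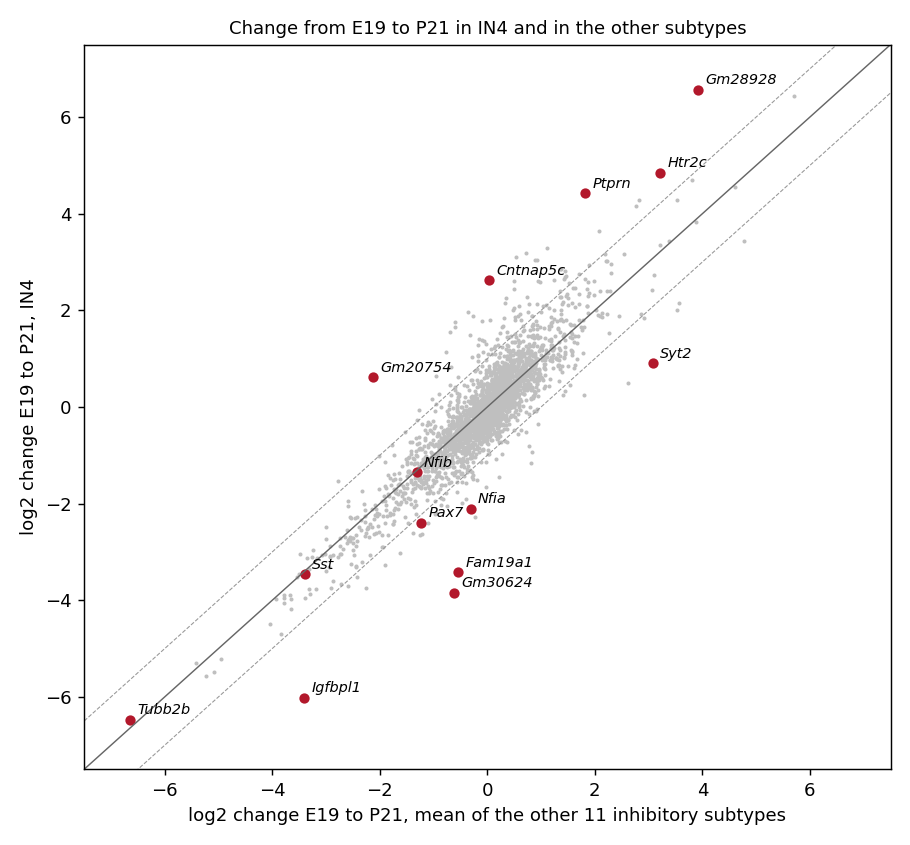
Log2 change from E19 to P21 in IN4 (vertical) against the mean of the other 11 inhibitory subtypes (horizontal), 1 point per gene with at least 100 CPM in IN4 at E19 or P21 and named genes marked. Tubb2b lies near the diagonal at -6.47 and -6.65, Cntnap5c and Ptprn lie above it, and Fam19a1 and Igfbpl1 lie below it.

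Gene lists were read against all 8368 genes with at least 20 CPM at E19 or P21, of which 878 were higher at P21 (10.5%) and 1496 lower (17.9%), with a median log2 change of -0.15. The immature cytoskeleton and growth list had 20 of 21 measured members lower and 0 higher, with a median of -2.78. Among 15 patterning factors 10 were lower and 0 higher (median -1.12), Pax7, Otx2 and Meis2 among them, and among 39 other transcription factors 20 were lower and 2 higher, Rora and Hivep2 (median -1.01). Of 8 selector factors 4 were lower (Gata2, Sox14, Lhx1 and Tcf7l2), and of 4 neuropeptide genes 3 were lower (Sst, Pnoc and Tac1). The 6 genes of GABA synthesis and transport had none past the threshold in either direction (median -0.49).

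Receptor and channel lists leaned the other way. Of 17 genes for GABA-A and glycine receptors and chloride transporters 5 were higher (Gabra5, Gabrg3, Glra3, Glrb and Slc12a5, the chloride exporter KCC2) and 1 lower, Glra2, the glycine receptor subunit of fetal neurons (median 0.53). Of 16 ionotropic glutamate receptor genes 5 were higher and 1 lower (median 0.40), with Grin2a going from 213 to 818 CPM. Of 41 potassium channel genes 13 were higher and 4 lower (median 0.42), with Kcnc2, a fast Kv3 channel, going from 149.6 to 613 CPM and Kcna1 from 5.75 to 60.8 CPM. Of 35 sodium, calcium and HCN channel genes 11 were higher and 6 lower (median 0.48). Of 18 receptors of neuromodulators and peptides 7 were higher (Chrna3, Chrna7, Chrm3, Htr2c, Htr4, Htr7 and Vipr2) and 2 lower, Adra1a and Cnr1 (median 0.17).

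Adhesion genes were mixed. Of 68 axon guidance genes 3 were higher and 19 lower (median -0.46), of 73 synapse organisers 18 were higher and 6 lower (median 0.29), and of 22 cadherins and protocadherins 8 were higher and 6 lower (median 0.39). Of 5 genes of the perineuronal matrix 4 were lower (Ncan, Vcan, Tnc and Ptprz1) and Tnr was higher. All 4 measured immediate early genes were higher at P21, at low levels: Egr1 went from 0 to 46.7 CPM, Nr4a1 from 8.63 to 85.5 CPM, and Fosl2 and Nr4a3 each from 0 to 21.2 CPM.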

How the data were processed

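Nuclei of 4 libraries were captured with 10x Genomics 3′ v3 chemistry and, per the labels, processed with Cell Ranger 3.0.2 against an mm10 pre-mRNA reference, so intronic reads entered the deposited UMI counts and long genes gain reads. For cell filters, doublet treatment, integration and naming of subtypes the sources used here give no steps. The deposited metadata gave the stage, subtype, cluster, reference label and mitochondrial and ribosomal percent of each nucleus as percent values, and 4 other columns of values per nucleus were not used. Recomputed UMI totals equalled the deposited ones for all 9724 nuclei. No doublets were removed here. With Python 3.11.15, numpy 2.4.6, scipy 1.17.1 and pandas 2.3.3, counts were summed per library and subtype (at least 20 nuclei for the comparison), scaled to 1000000 and compared as log2 ratios with 5 CPM added. Calls needed a log2 difference of 1. The code was tested on simulated data. Of the gene identifiers, 31011 (99.9%) were in GENCODE M21 (GRCm38), whose coordinates were used, and promoters came from RefSeq (GRCm38.p6).

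The genes named were those of the marker set, the 15 highest and 8 lowest by the least extreme of 4 ratios (at least 50 CPM), the 5 largest changes in each direction per step and over the whole span and the 4 largest differences in change in each direction (at least 100 CPM), and the leading members of each list; a few genes that these rules name are not reported here. Members, lists and rules were chosen with earlier results of these data known. Of 57 genes named by rank, 33 overlapped an annotated gene on the opposite strand and 20 one on the same strand, and the sources used here state no strand setting for the counting, so their counts may include the neighbour. Alternatives were another pseudocount, scaling, weighting of nuclei, comparator, minimum level, each library left out and, chosen after seeing the data, IN4 without cluster 7, cluster 11 alone and single parts of IN4.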

Additional observations from a re-analysis of the deposited data

How the results depend on the processing

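No paired analysis was possible because each stage was 1 library. Of the 72 genes higher in IN4, 37 remained with 20 CPM added. The 60 lower genes became 94 without the P21 library and 110 with cluster 11 alone, which gave 64 higher, 47 of the 72 among them. At a minimum of 50 CPM the counts were 191 higher and 135 lower (E19 to P4), 40 and 216 (P4 to P8), and 190 and 178 (P8 to P21). Cluster 11 alone gave 98 lower (E19 to P4) and 54 lower against 26 higher (P4 to P8), with Pax7 at 620 CPM at E19 and 577 at P4. For P4 to P8, 20 CPM added gave 9 higher, median-of-ratios scaling 43 higher and 60 lower, and IN4 without cluster 7 gave 50 lower. Leaving out nuclei with 2 or more UMIs of Slc17a6 or of glial markers left 61, 69, 73 and 10 nuclei and gave 71 higher and 76 lower (E19 to P4), 32 higher (P4 to P8) and 234 higher and 182 lower (P8 to P21), the last from 10 nuclei. Under it, 45 of the 72 and 44 of the 60 genes remained, and the least ratio of Rai14 was -0.69 and that of Nfia 0.89. Without IN1 and IN2 in the denominator the IN4 share was 15.4%, 19.6%, 11.7% and 16.1%. The E19 to P21 change of Ndst4 was -2.28 over all IN4, 0.49 in cluster 11, 2.80 with label 19 and 0.59 in cluster 29, and that of Ebf3 was 0.90 in cluster 29. The cause of these shifts was not tested. Of the values for single genes, 442 stayed within the counting interval of the main value and 117 moved outside it. Another 5 changed sign from a main log2 value of at least 1 in size. Sign changes of smaller values were not counted apart. Few nuclei limit the parts of IN4, with 12 in cluster 29 at E19.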
